A study of Mus musculus with 12 samples.

Results

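The regions described here are 11073 m6A peaks of mouse liver that were called in the library labelled control and that shared no base with any peak of the library labelled case. They made up 64.5% of the 17175 peaks of the control list, and the 6 peak lists of the series held 40679 peaks in all. They are called unshared peaks below, and the other 6102 control-list peaks, which overlapped a case-list peak by at least 1 base, are called shared peaks. The 11171 case-list peaks (of 17277) that shared no base with a control-list peak are called case-alone peaks. Membership was selected on the peak calls of these 2 lists, so that the counts of unshared and shared peaks, their lengths and their enrichment are given as a description, with no test.

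N6-methyladenosine (m6A) is a methyl mark that a nuclear complex of METTL3, METTL14, WTAP and further subunits places on adenosines of messenger RNA, mostly in a short sequence around GGAC. The mark is known to lie mainly near stop codons and in long internal exons, and reader proteins of the YTH family that bind it act on the stability and translation of the transcript. In liver it has been studied in lipid and bile acid metabolism. In m6A-seq, RNA is broken into fragments, those bound by an antibody against m6A are sequenced (the immunoprecipitate, IP), and a peak is a stretch where the IP exceeds its background.

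The livers came from male C57BL/6 mice aged 8 weeks, with a liver-specific Mettl3 knockout (cKO) or wild type, and each genotype had 3 IP and 3 input libraries. The labels do not give the Cre driver or the deleted part of the gene. One peak list and 1 input library per genotype carried a name that could be set against the labels. Case was read as cKO and control as wild type, which no label states, and each direction below is drawn from that reading. With 1 list and 1 input library each there is no replicate check: the values compare these libraries, not the genotypes. A further 4 peak lists are named by library numbers alone and match no label. They were used for their positions only, and are told apart below by their size: 2424, 1624, 1127 and 1052 peaks.

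The case input held 3564284 fragments and the control input 1736860. Mettl3, the targeted gene, was at 2.91 FPKM (17 fragments) in the case input, against 3.44 FPKM (12 fragments) in the control input. FPKM is a level per transcript length, here after the authors' scaling, which does not set the library totals equal. Case fragments over control fragments, after the authors' scaling, gave a ratio of 1.21 with an exact 95% interval of 0.545 to 2.78, so no difference was detectable at this depth, and neither list had a peak assigned to Mettl3. The hepatocyte gene Alb had 21158 FPKM (263027 fragments) in the case input and 11189 FPKM (118705 fragments) in the control input. Fragments outside mitochondrial genes numbered 2581148 and 1322369. Over 9574 genes compared, the median log2 difference, case minus control, was 0.41 as deposited and -0.14 with these totals set equal. FPKM values below are as deposited, so a pair of them carries this difference in scale. All intervals below are exact 95% intervals that cover counting error only. The authors' median false discovery rate was 12.3% in the case list and 1.66% in the control list.

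Stretches of 7 unshared peaks are shown because they lie in liver genes or in a peak found in each numbered list and could be read from RefSeq windows around gene starts. They were chosen after their values were seen, and those of Cyp2a5, G6pc, Lpin2 and Tat because the first 50 bases held GGACT. Each is printed 5′ to 3′ on the strand of the gene named, on GRCm38.p6, the assembly with the coordinates of mm10. Capitals mark GGAC, the centre of the m6A context.

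Onecut1, a liver transcription factor, from chr9:74863087-74863386 (plus strand): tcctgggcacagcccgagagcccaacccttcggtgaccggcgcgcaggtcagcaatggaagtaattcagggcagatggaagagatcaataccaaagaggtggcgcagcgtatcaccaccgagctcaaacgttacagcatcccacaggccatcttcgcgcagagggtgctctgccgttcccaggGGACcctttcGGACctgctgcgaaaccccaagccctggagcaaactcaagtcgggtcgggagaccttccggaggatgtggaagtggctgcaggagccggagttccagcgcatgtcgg
Fgg, the fibrinogen gamma chain, from chr3:83008374-83008557 (plus strand): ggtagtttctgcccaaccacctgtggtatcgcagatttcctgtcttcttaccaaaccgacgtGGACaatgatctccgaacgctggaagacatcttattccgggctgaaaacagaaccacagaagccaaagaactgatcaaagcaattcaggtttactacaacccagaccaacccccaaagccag
Ggnbp2, a zinc finger protein gene, from chr11:84869927-84869956 (minus strand): tggcagtgtgcagGGACggggaggaggagt
Cyp2a5, a coumarin hydroxylase, from chr7:26835363-26835388 (plus strand): catgctgacctcaGGACtcctcctgg
G6pc, the glucose-6-phosphatase, from chr11:101367730-101367759 (plus strand): ggccaaccgggctGGACtcactgcacgggc
Lpin2, a phosphatidate phosphatase, from chr17:71183978-71183998 (plus strand): gccgGGACtggcgaggtgcag
Tat, the tyrosine aminotransferase, from chr8:109990436-109990464 (plus strand): ctcatcatcagaGGACttggtggaggagc

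The Onecut1 stretch held GGAC at 2 places and belonged to a peak of 428 bases with an authors' fold enrichment of 50.9 (IP over background). The nearest case-list peak lay 162233 bases away. The Fgg peak was shown whole, had a fold of 23.8 and recurred in 1 numbered list. The Ggnbp2 peak of 325 bases had a fold of 22.4 and recurred in each of the 4 numbered lists, and 9.23% of it is shown. The part shown is centred on GGAC, so the presence of GGAC in it is tied to how it was cut. The Onecut1, Fgg and Ggnbp2 stretches were read from start windows of genes on the other strand: Gm33562, Gm30097 and Ggnbp2os. Since the lists do not give a strand, reads of these peaks cannot be told apart from those of the genes on the other strand. The Cyp2a5, G6pc, Lpin2 and Tat stretches come from peaks at a RefSeq transcript start, with folds of 4.08, 13.7, 77.2 and 70.7. For Lpin2 and Tat this start lies inside the outer bounds of the gene. The stretches show 10.9%, 9.40%, 20.4% and 34.1% of their peaks, and the T after GGAC follows from how they were chosen.

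Unshared peaks were shorter than shared ones. Their median length was 192 bases (quartiles 100 and 345, longest 3669), against 314 bases (quartiles 159 and 481) for shared peaks. A length under 50 bases was found in 11.7% of unshared and 4.49% of shared peaks, and together the unshared peaks covered 2.66 Mb. A longer peak has more bases with which to meet a case-list peak, so length is tied to the rule. The authors' median fold enrichment was 25.1 for unshared and 39.9 for shared peaks. The false discovery rate had a median of 1.66% in unshared and 1.69% in shared peaks.

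**Figure D1:**
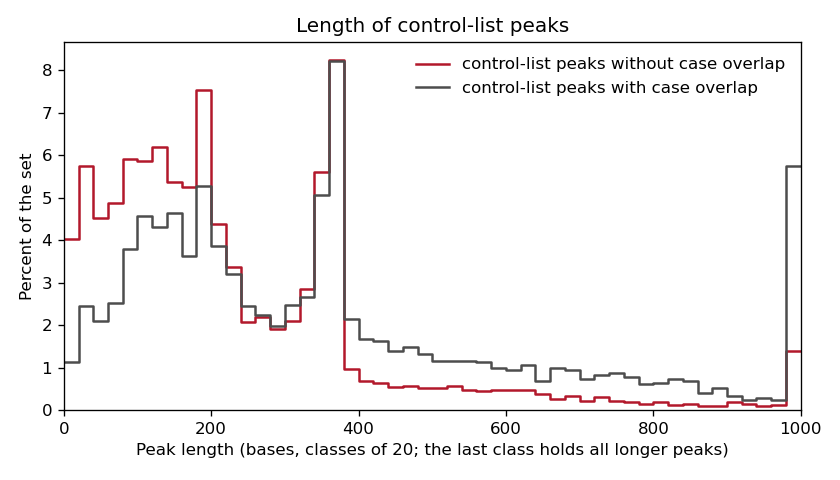
Length of control-list peaks in classes of 20 bases (x axis, bases) against the percent of each set (y axis), for the 11073 unshared peaks (red) and the 6102 shared peaks (grey). The red line is higher below 200 bases and the grey line is higher beyond 400 bases, where 5.43% of unshared and 13.1% of shared peaks measured 401 to 600 bases.

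Most unshared peaks were far from any case-list peak. The median gap was 7768 bases on the genome, 10% of the unshared peaks were within 642 bases and 44.9% were at least 10000 bases away. Only 164 (1.48%) lay within 100 bases. At the threshold itself, the unshared peaks of Tmed10 and Zfp955a touched a case-list peak without sharing a base, and those of Ptbp3, Baz2a and Ap1ar were 2, 3 and 3 bases away. Just outside, the control-list peaks of Pelp1 and Fdx1l shared 1 base with a case-list peak, and those of Ccdc59, G3bp1 and Hmgn1 shared 2. Among shared peaks, 52.9% were covered along their full length by a case-list peak and 12.7% along less than 50%.

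Unshared peaks were assigned to 5818 of the 7450 genes of the control list. A single unshared peak was found in 3286 of these genes (56.5%), 329 genes had at least 5 and 37 had at least 10. A case-list peak elsewhere in the same gene was present for 3785 genes (65.1%), which held 7673 of the unshared peaks (69.3%). The remaining 2033 genes had no case-list peak and held 3400 unshared peaks (30.7%). Shared and unshared peaks stood side by side in 2274 genes.

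The 12 genes with most unshared peaks held 221 of them. Cps1, the enzyme of the first step of the urea cycle, had 27 unshared peaks among 28 control-list peaks, with lengths of 8 to 732 bases and a median fold of 18.1. Its 1 case-list peak was a shared one, and 3 of its unshared peaks recurred in a numbered list. The peak of highest fold in Cps1 measured 78 bases (chr1:67209596-67209673, mm10), 63752 bases from the nearest case-list peak.

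Egfr, the receptor of epidermal growth factor, had 21 unshared peaks among 23, with folds of 2.52 to 233. Of these, 6 lay in the last 10% of the gene, among them a peak of 1134 bases with the fold of 233 (chr11:16911494-16912627), which recurred in 1 numbered list. The canalicular exporters Abcc2 and Abcb11, for conjugated anions and for bile salts, had 16 and 15 unshared peaks. Each also had 2 case-alone peaks.

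Lpin1, whose product turns phosphatidate into diacylglycerol, had 15 control-list peaks and 0 case-list peaks. They had folds of 11.7 to 141 and began 58.6% of the way along the gene, and 5 were in its last 10%. The highest, of 792 bases (chr12:16536733-16537524), was 419701 bases from the nearest case-list peak, and 0 of the 15 recurred in a numbered list. The protease inhibitor gene Mug1 had 14 unshared and 0 case-list peaks, of which 2 recurred, but it has near-identical copies among which reads could be split and its values are uncertain.

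The other genes of the 12 were of several kinds. Neb, the giant muscle protein nebulin, had 26 unshared peaks among 37, with 14 case-list peaks of which 3 were case-alone. The matrix glycoprotein Fn1 and the endocytic receptor Lrp1 had 23 each, at low folds of at most 17.3 and 17.7. Col18a1, a basement membrane collagen, had 14 and Aox3, an aldehyde oxidase, had 13. Kcnq1ot1, a long noncoding RNA read antisense to Kcnq1, had 14 unshared and 18 case-alone peaks. Since the lists do not give a strand, its reads cannot be told apart from those of the gene on the other strand.

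**Figure D2:**
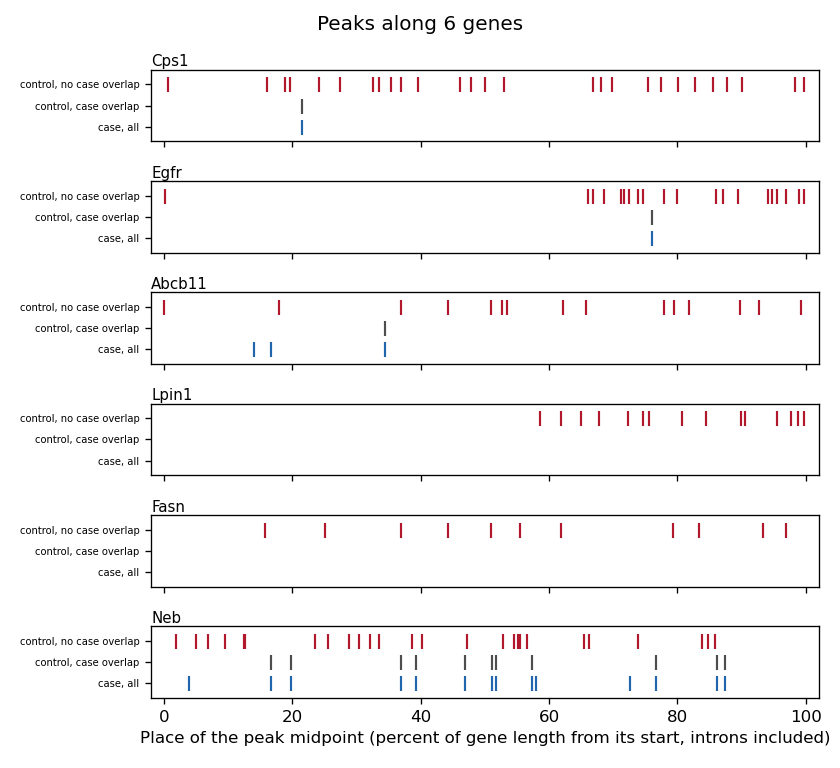
Midpoints of peaks along 6 genes, as percent of gene length from the start with introns included (x axis). In each panel the upper row marks unshared peaks, the middle row shared peaks and the lower row all case-list peaks; Cps1 has 27 unshared peaks and 1 case-list peak, Lpin1 15 and 0, Fasn 11 and 0, and Neb 26 and 14.

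Among genes with at least 5 unshared peaks and no case-list peak, Lpin1 and Mug1 were followed by 5 genes with 10 or 11. Fasn, the fatty acid synthase, had 11, with folds of 8.30 to 102. Acacb, the acetyl-CoA carboxylase that restrains mitochondrial fatty acid oxidation, had 10, with folds of 4.63 to 187 and 3 peaks in its last 10%. Ass1, the argininosuccinate synthase of the urea cycle, also had 10, and so had the uridine phosphorylase Upp2, of which 6 were in the last 10%. The protease gene Ddi2 had 10. Aspg (asparaginase), Fmo5 (a flavin monooxygenase) and Sardh (sarcosine dehydrogenase) had 9 each.

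The unshared peaks of highest authors' fold enrichment were in other genes. An import receptor gene, Tnpo2, held the highest, at 3196 over 172 bases, and a case-list peak lay 197 bases from it. The peak of Eif4g1, a scaffold of translation initiation, had a fold of 931 and that of Arhgef26 744. Onecut1 had one of 576 over 1009 bases and Ppp1r3g, a glycogen-targeting phosphatase subunit, one of 549.75 over 1672 bases, at 135320 and 152311 bases from the nearest case-list peak. The other 5 were in Cyp2c69, Fam214a, Tat, Mup8 and Gm2083, between 435.75 and 550.21. Mup8 was listed at 0 FPKM in both inputs, and the Mup and Cyp2c genes have near-identical copies.

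By function, the unshared peaks were found in most genes of the hepatocyte lists. Over the 9574 genes compared in the input (mean of at least 1 FPKM), 51.9% held an unshared peak. In fatty acid and triglyceride synthesis 19 of 22 genes held one (94 peaks), in cholesterol synthesis and LDL uptake 21 of 23, in bile acid synthesis and transport 18 of 19 (74 peaks), and in urea cycle and amino acid enzymes 22 of 23 (113 peaks). Cytochrome P450 genes of drug metabolism held them in 22 of 24, hepatocyte transcription factors in 20 of 22, secreted plasma proteins in 28 of 34, fatty acid oxidation and ketogenesis in 18 of 22, and glucose and glycogen metabolism in 13 of 17. The list of known m6A-marked transcripts, which is not a hepatocyte list, was below the share over all genes, with 7 of 18 (38.9%). Genes of higher level hold more peaks in general: 64.7% of the 493 genes at 30 FPKM or more in the control input held an unshared peak, against 45.2% of the 3388 genes at 1 to 3 FPKM.

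Single genes of these lists are named here because each held at least 5 unshared peaks, so their counts follow from that choice. Slco1a1, an uptake transporter of organic anions, had 5 unshared peaks among 6, with folds up to 312. Among nuclear receptors Ppara had 7 and Hnf4a 7, with folds up to 79.8 and 87.2. The coagulation factor F5 had 12 and Apob, the core protein of very low density lipoprotein, 11, with Apob folds of at most 7.71.

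Markers of other liver cells held few unshared peaks. The Kupffer cell and macrophage list had them in 1 of 16 genes (2 peaks, in Cybb), and 48 of its 50 case-list peaks were case-alone. The sinusoidal endothelial list had them in 5 of 15 genes (7 peaks), and 67 of its 74 case-list peaks were case-alone. The stellate cell list had them in 2 of 11 genes. With 4 stellate markers of a mean under 1 FPKM included, that list of 15 held 2 unshared peaks, and 28 of its 33 case-list peaks were case-alone. Over all genes 11171 of 17277 case-list peaks were case-alone. In bulk liver, fewer cells of a type and less RNA per cell cannot be told apart. Among the m6A writer genes, Zc3h13 had 4 unshared peaks (folds 13.9 to 126), Wtap 3, and Mettl14, Rbm15 and Cbll1 had 1 each. Of the readers and erasers Ythdf1, Ythdf3, Ythdc1, Hnrnpa2b1, Fto and Alkbh5 had 1 each, with folds of 3.42 to 26.2.

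Peaks of the lists also differed in kind. The median fold was 7.72 over the 114 unshared peaks of secreted plasma proteins, against 28.4 over the 74 peaks of bile acid genes and 25.1 over all unshared peaks. Hepatocyte transcription factors had the longer peaks, with a median of 300 bases over 69 peaks, and the urea cycle and amino acid list the shorter ones, with 132 bases over 113 peaks. Recurrence in any numbered list was found for 19 plasma protein peaks (16.7%), 12 of 78 of cytochrome P450 (15.4%) and 5 of 34 of glucose and glycogen (14.7%). For fatty acid oxidation it was 8 of 57 (14.0%), for bile acid 8 (10.8%) and for urea cycle and amino acid peaks 12 (10.6%), against 4.92% of all unshared peaks. Recurrence was found for 5.80% of the peaks of hepatocyte transcription factors, 3.28% of cholesterol synthesis and 2.13% of fatty acid synthesis. It was found for 1 of 10 peaks of m6A writers and 0 of 41 peaks of known m6A-marked transcripts. These counts are small, and Ppp1r3b held 3 of the 5 glucose and glycogen peaks. The plasma protein and cytochrome P450 lists include genes with near-identical copies, where the place of a peak is uncertain.

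Along the gene, unshared peaks lay mostly towards the 3′ end, but more often near the start than shared peaks did. Place was taken from the midpoint over the whole gene with introns, for 10345 unshared peaks within RefSeq gene bounds. The last 10% held 29.4% of them (28.5 to 30.3%), against 32.3% of shared peaks (31.1 to 33.5%) and 30.4% of all placed control-list peaks. The first 10% held 8.85% (8.31 to 9.42%), against 4.82% of shared peaks (4.27 to 5.41%) and 7.43% of all placed control-list peaks. Case-alone peaks stood between, at 7.43% (6.93 to 7.95%) in the first 10%, and had 29.4% in the last. The next 10% of the gene held fewest in both sets, at 4.22% of unshared and 4.04% of shared peaks. Peaks of 1 list are not replicates, and no test was made.

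**Figure D3:**
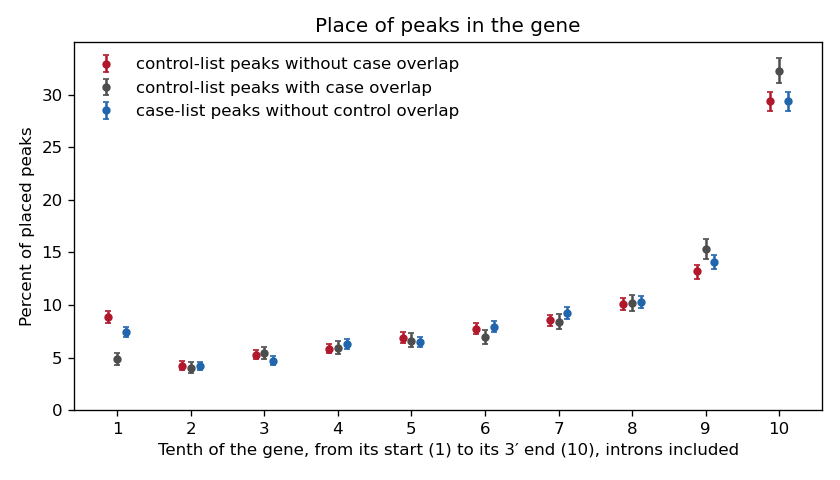
Percent of placed peaks (y axis) in each 10% of the gene from start to 3′ end (x axis), with exact 95% intervals of counting error, for unshared (red), shared (grey) and case-alone peaks (blue). In the first 10% unshared peaks stand at 8.85%, shared peaks at 4.82% and case-alone peaks at 7.43%, and in the last 10% at 29.4%, 32.3% and 29.4%.

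The difference at the start was present in each length class and within the same genes. Among peaks of 201 to 400 bases, 10.2% of unshared and 4.88% of shared peaks were in the first 10%, and among those over 400 bases 6.55% and 3.83%. For peaks of up to 100 bases the values were 8.70% (7.65 to 9.84%) and 6.84% (5.07 to 8.99%), with intervals that overlap. In the 2274 genes that held both kinds, 8.07% of unshared (7.33 to 8.86%) and 4.76% of shared peaks (4.10 to 5.50%) were in the first 10%, and 26.4% and 29.4% in the last. Within 500 bases of the RefSeq start lay 5.43% of unshared, 2.56% of shared and 4.15% of case-alone peaks.

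Peaks at the very start of transcripts could be set against sequence. The RefSeq windows used run from 250 bases before to 50 bases after each of 32851 starts. A window of its own gene was overlapped by 378 unshared peaks (3.41%), against 80 shared peaks (1.31%) and 246 case-alone peaks (2.20%). The first 50 transcribed bases were covered whole by 273 unshared peaks (2.47%), 62 shared peaks (1.02%) and 167 case-alone peaks (1.49%). The Cyp2a5, G6pc, Lpin2 and Tat stretches above were chosen because they hold GGACT. This form was present in the first 50 bases of 31 of the 281 windows under unshared peaks (11.0%, 7.62 to 15.3%). It was present in 2 of 63 windows under shared peaks (3.17%, 0.387 to 11.0%), in 11 of 168 under case-alone peaks (6.55%, 3.31 to 11.4%) and in 5.76% of all RefSeq starts. The interval for unshared peaks overlaps those for shared and for case-alone peaks.

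On the other strand, AGTCC was in 3.56% of the windows under unshared peaks, 6.35% under shared peaks, 4.17% under case-alone peaks and 4.87% of all starts. The shorter GGAC, which every GGACT contains, was in 23.5% under unshared peaks (18.7 to 28.9%), 14.3% under shared peaks (6.75 to 25.4%), 23.8% under case-alone peaks (17.6 to 31.0%) and 18.9% of all starts. Its reverse complement GTCC was in 19.6% under unshared, 7.94% under shared and 12.5% under case-alone peaks and in 17.4% of all starts. A match is a description of these letters, not a site, and windows of alternative starts of a gene can overlap.

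Few unshared peaks recurred in the numbered lists. In the list of 2424 peaks recurred 223 unshared peaks (2.01%, 1.76 to 2.29%), against 4.69% of shared peaks (4.17 to 5.25%) and 2.96% of all control-list peaks. In the list of 1624 it was 233 (2.10%), against 3.85% of shared peaks and 2.72% of all. In the list of 1127 it was 191 (1.72%), against 3.56% and 2.38%, and in the list of 1052 it was 102 (0.921%), against 2.56% and 1.50%. In each list the interval for unshared peaks lay below that for shared peaks. Seen from the numbered lists, unshared peaks touched 9.20% of the peaks in the list of 2424, 14.2% in that of 1624, 16.8% in that of 1127 and 9.60% in that of 1052.

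**Figure D4:**
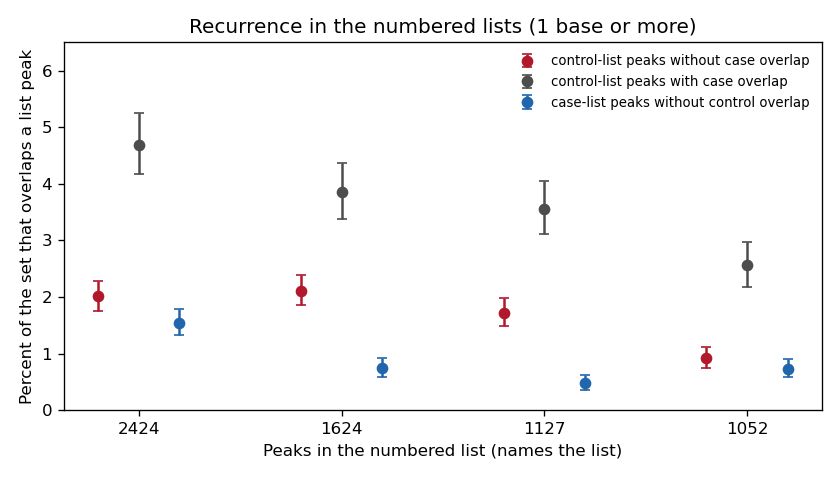
Percent of each set that overlapped a peak of a numbered list by at least 1 base (y axis), for the 4 lists, each named by its number of peaks (x axis), with exact 95% intervals of counting error. Unshared peaks (red, 0.921% to 2.10%) lie below shared peaks (grey, 2.56% to 4.69%) in each list; case-alone peaks (blue) run from 0.474% to 1.54%.

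Recurrence also differed between unshared and case-alone peaks, though not in each list. The 2 sets come from lists of unlike stringency. The median false discovery rate was 1.66% for unshared and 12.1% for case-alone peaks, and the median fold 25.1 and 14.6. The part of this in recurrence was not tested. The shares of case-alone peaks were 0.743% (0.592 to 0.920%) in the list of 1624 and 0.474% (0.356 to 0.620%) in the list of 1127, both below the intervals of unshared peaks. In the list of 1052 the share was 0.734% (0.584 to 0.910%), against 0.921% of unshared peaks (0.752 to 1.12%), and these intervals overlap. In the list of 2424 it was 1.54% (1.32 to 1.79%), against 2.01% of unshared peaks (1.76 to 2.29%), where the intervals also overlap. At least 1 numbered list held 545 unshared peaks in 463 genes (4.92%, 4.53 to 5.34%), against 8.98% of shared peaks (8.27 to 9.73%) and 2.63% of case-alone peaks (2.34 to 2.95%).

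Length moved with recurrence in both sets. Among unshared peaks of up to 50 bases 2.27% recurred in any list, and among those over 600 bases 12.3%. Shared peaks of the same lengths recurred at 5.36% and 13.6%. At 101 to 200 bases the shares were 4.40% of unshared (3.73 to 5.15%) and 7.02% of shared peaks (5.73 to 8.51%), and at 301 to 400 bases 4.93% (4.06 to 5.92%) and 8.28% (6.82 to 9.94%). At 51 to 100 bases they were 2.88% (2.09 to 3.88%) and 6.84% (4.70 to 9.57%). In the other classes the intervals overlap. They were 1.54 to 3.23% and 3.03 to 8.68% up to 50 bases, and 4.90 to 7.35% and 6.79 to 10.7% at 201 to 300 bases. At 401 to 600 bases they were 6.09 to 10.6% and 7.91 to 12.2%, and above 600 bases 9.80 to 15.1% and 11.6 to 15.8%.

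All 4 numbered lists held 21 of the unshared peaks, in 19 genes, against 66 shared and 8 case-alone peaks. The highest authors' fold among the 21 was 87.66, at the start of Aass, the first enzyme of lysine breakdown (chr6:23132881-23132927, 47 bases), and the nearest case-list peak was 450278 bases away. Marf1 followed with 58.61 and Lrp4 with 55.57, with the Lrp4 peak 99.5% of the way along its gene. Then came 2010111I01Rik, a peak of Cyp3a41a, Ggnbp2, Cdk5rap3, the acute phase gene Saa2, the ubiquitin ligase gene Ubr4 and Defb30. Some of the 21 lay close to a case-list peak, such as those of Saa2 (414 bases) and Ubr4 (323 bases), and Defb30 was listed at 0 FPKM in both inputs.

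Gene families with near-identical copies took an uneven part of the recurrence. These families were chosen after their values were seen. Among major urinary protein (Mup) genes 16 of 16 unshared peaks recurred, among Cyp3a genes 13 of 33 and among Serpina genes 11 of 35, against 4.92% of all unshared peaks. The intervals were wide for Cyp2d, with 3 of 17 (3.80 to 43.4%), Cyp2c, with 5 of 42 (3.98 to 25.6%), and Ugt, with 4 of 35 (3.20 to 26.7%), and each of these reaches below 4.92%. Reads of such copies can be placed on either copy, so the place and the gene of these peaks are uncertain. With these and the Cyp2c, Cyp2d and Ugt genes left out, 493 of 10895 unshared peaks recurred (4.53%).

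The input libraries were then compared for the genes that hold unshared peaks. The rule names peak calls alone, but the background of those calls is not given. If it was the input, membership and the input level are linked through the calls, which was not tested. On the log2(FPKM + 1) scale, which understates the differences of low genes, 1613 of the 4966 genes with an unshared peak (32.5%) were higher in the case input by 2-fold or more, and 195 (3.93%) were at least 2-fold lower there. Over all 9574 compared genes these shares were 23.6% and 13.2%. The median log2 difference, case minus control, was 0.64 for genes with an unshared peak and 0.41 for all genes. Scaling changes the split. It was 856 higher and 364 lower with the median of all genes set to 0 (1108 and 1760 over all genes), 923 and 306 with quantile normalization (1391 and 1497), and 532 and 427 with equal totals outside mitochondrial genes (688 and 1858).

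Genes with more unshared peaks were more often higher in the case input. Of genes with 1 unshared peak 25.5% were at least 2-fold higher, of those with 2 to 4 it was 37.3%, and of the 324 genes with 5 or more it was 190 (58.6%), with 1 gene lower. Among these 324 genes 102 were higher and 9 lower with equal totals. Genes with no unshared peak were higher in 14.0% and lower in 23.2%. Genes with unshared peaks and no case-list peak were higher in 43.5% and lower in 2.99%, while genes whose control-list peaks were all shared were higher in 13.4% and lower in 16.0%.

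The difference was also present among genes of like level in the control input. At 10 to 30 FPKM, 41.1% of the 701 genes with an unshared peak and 12.6% of the 478 genes without one were higher by 2-fold or more in the case input, and 6.56% and 37.7% were lower. At 30 FPKM or more the shares higher were 53.0% and 9.20%, at 3 to 10 FPKM 29.4% and 10.4%, and at 1 to 3 FPKM 24.9% and 12.6%. Below 1 FPKM 50.2% of 315 and 41.0% of 378 genes were higher. In this class the filter of a mean of at least 1 FPKM keeps only genes with more than 1 FPKM in the case input. That 0 were lower in either set follows from the filter, which also raises the shares higher. These shares are of FPKM as deposited, and the split depends on scaling as given above.

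**Figure D5:**
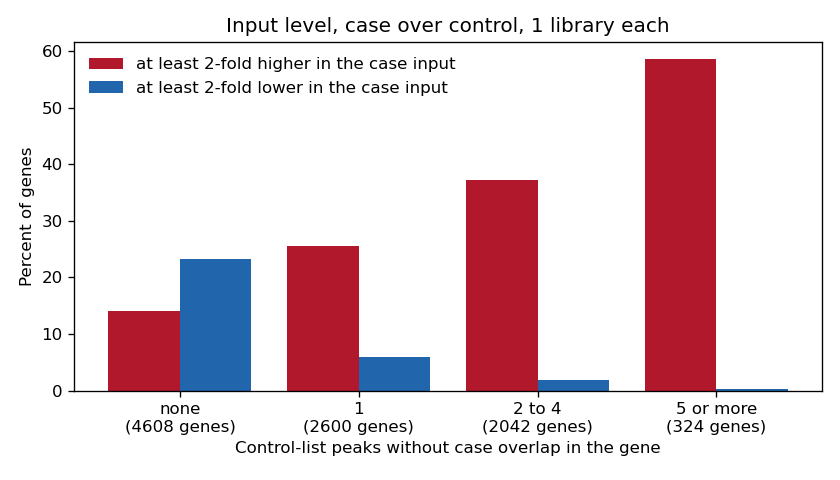
Percent of compared genes (y axis) with a level higher (red) or lower (blue) by 2-fold or more in the case input, against the control input, by the number of unshared peaks in the gene (x axis), 1 input library per label and no replicates, FPKM as deposited. The share higher is 14.0% with no unshared peak and 58.6% with 5 or more, and the share lower is 23.2% and 0.309%.

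Single genes show the same side by side. Lpin1 was at 74.3 FPKM (2649 fragments) in the case input, against 4.16 FPKM (127 fragments) in the control input, with 0 case-list and 15 control-list peaks. Cps1 had 533 FPKM in the case input and 63.5 in the control input, Fasn 54.6 and 4.20, and Upp2 169 and 17.9. Abcb11 had 44.3 and 7.66 FPKM, and Slco1a1 29.6 and 1.07. For each of these genes the case input had the higher level. The control list also had more peaks in each, but the genes were named for their unshared peaks, so this is tied to the choice. Apob and Fn1, with 556 and 229 FPKM in the case input and 404 and 168 in the control input, were within 2-fold as deposited. They had 47553 and 12230 fragments in the case input, of 2581148 outside mitochondrial genes. In the control input they had 30217 and 7635, of 1322369, so the side on which they are higher depends on the scaling.

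Markers of other liver cells moved the other way in the same libraries. The 16 measured Kupffer cell and macrophage genes, each at least 2-fold lower in the case input, summed to 28.8 FPKM there and 940 FPKM in the control input, and Folr2 and Csf1r were at 0 fragments in the case input. The 15 endothelial markers, likewise each lower, summed to 49.6 and 435 FPKM, and the 15 stellate markers to 16.5 and 156 FPKM. Of these, 11 had a mean of at least 1 FPKM and each was at least 2-fold lower, while Acta2 was listed at 0 in the control input. The case input also had the larger number of fragments. Their part in the peak calls and in the input differences was not tested.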

How the data were processed

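Per the labels' protocols, fragmented liver RNA was precipitated with an anti-m6A antibody, and IP and input RNA were sequenced. Per the submitters' processing notes, the build was mm10 and the tools included HISAT2 2.0.4, cutadapt 1.9.3, Cufflinks and Cuffdiff, with no roles named. Peak names begin with MACS per the deposited lists, and neither its settings nor its background is given in the sources used here. Per the file headers, the authors' values for a peak are its fold enrichment, its false discovery rate in percent and a score made from minus the log10 of its p-value. They were used only to describe peaks within a list. The authors deposited FPKM and a scaled signal headed as counts for the inputs. Low values of this signal step evenly, and dividing by the step gave whole fragments, within 0.02, for 91.8% of values in the case input and 92.7% in the control input. Since the rest were not whole and each genotype had 1 library, no count test was run.

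Peaks were overlapped on the same chromosome, without strand, at a minimum of 1 base (pandas 2.3.3, numpy 2.4.6), and the code was tested on simulated data. Exact binomial intervals came from scipy 1.17.1. Starts, which the files count from 0, are given counting from 1. Place used RefSeq gene bounds of GRCm38.p6. Input genes had a mean of at least 1 FPKM, a pseudocount of 1 was added, 13 mitochondrial genes were left out, and of 83 duplicate symbols the row of highest mean was kept. Replicate peak lists or inputs tied to each genotype were not used, and no p-value is given. A total of 28 columns of the numbered libraries, which match no label, was not used. Named genes were those with most unshared peaks (12), highest fold (10, and 10 among peaks in all 4 numbered lists), at least 5 unshared peaks in a listed gene, methylation genes, the 5 peaks on each side of the threshold, and the 10 genes with most unshared peaks and no case-list peak. Exceptions are the printed stretches outside these rules, the gene families and the markers. Members, the 15 gene lists and the comparisons were chosen with earlier results of these data known.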

Additional observations from a re-analysis of the deposited data

How the results depend on the processing

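With 5000 peaks of highest fold taken from each list, 3842 control-list peaks were unshared (76.8%, against 64.5% of all). The other 5 settings of the overlap or of the peaks gave between 9143 and 13140 unshared peaks. The highest came from keeping peaks with a false discovery rate up to 15%, which removed case-list peaks alone, since control-list rates end at 7.52%. Asking a numbered list to cover 50% of the peak lowered recurrence to 1.42% in the list of 2424 peaks, 1.77% in that of 1624 and 1.46% in that of 1127. Among peaks of 150 to 300 bases it was 2.51% in the list of 2424 and 1.99% in that of 1127. The share in the last 10% was 36.8% in genes with 1 control-list peak, 26.6% for peaks of 150 to 300 bases and 26.2% with gene bounds of the authors' input table, and the share in the first 10% was 11.4% for peaks of 150 to 300 bases. The cause of these changes was not tested. Genes higher and lower in the case input numbered 856 and 364 with median centring, 923 and 306 with quantile normalization and 532 and 427 with equal totals, which follows from the scaling. Of 39 alternatives, 16 moved a value beyond its counting interval or a count beyond 1.5 times, and 23 did not. The gene bounds, the equal totals, the share in the first 10%, that of recurrence in any list and the gene families left out were chosen after seeing the data.

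No paired analysis was possible because 1 peak list and 1 input library per genotype were tied to a label, and for the same reason no replicate was left out. Overlap by strand was not run, as the peak lists give no strand, and spliced positions were not run without exon annotation. Leaving out the mitochondrial chromosome changed nothing, as no control-list peak lies there. The limit throughout is 1 library per label and unequal depth.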
